A study of Mus musculus with 26 samples.

Results

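Joins to Sγ2b, the switch (S) region upstream of the constant gene of IgG2b, were followed in all 26 libraries of a study of class switch recombination in mouse splenic B cells. The members are all junctions whose prey end lies at chr12:114539000-114557999 (mm9), in either orientation. There were 624 of them among 616341 junctions in the immunoglobulin heavy chain (IgH) locus and 777800 junctions in all. The study used CSR-HTGTS, in which a primer in a fixed bait region is used to amplify and sequence whatever DNA has been joined to that region, so that each row of a library is a bait-prey junction. Baits were Sµ, the usual donor of switching, or Sγ3.

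WT and mutant mice were of 129Sv background and 6 to 8 weeks old. The mutant, A150, was homozygous for an allele in which the Iγ3 promoter was replaced by a rearranged VDJ-Eµ cassette, with endogenous Sµ and Sγ3 in place, so that Sγ3 lies behind an ectopic Eµ enhancer and B cells develop with a heavy chain of the IgG3 class. B cells were obtained by negative sorting for CD43 and were stimulated with anti-CD40+IL4 or with anti-CD40+TGF-β, a mix that also contained IL4, IL5 and BLyS. By the paper's methods, IL4 was at a lower concentration in this mix than in anti-CD40+IL4. The labels give 96 h of stimulation. There were 3 libraries for each genotype, bait and stimulation, except 4 for A150 with the Sµ bait and anti-CD40+IL4 and 4 for A150 with the Sγ3 bait and anti-CD40+TGF-β. The study counts independent mice for its junctions, but the labels name no mouse for a library, so the p-values below measure the spread between libraries and whether libraries of a number share a mouse is not known.

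Class switching replaces the constant region of an antibody by joining double-strand breaks in the donor Sµ to breaks in an acceptor S region farther downstream, with loss of the DNA between them. Breaks are started by activation-induced cytidine deaminase, AID, which prefers motifs such as AGCT in transcribed S DNA. Transcription of the acceptor from its own I promoter is set by cytokines, and TGF-β is known to act on the Iγ2b and Iα promoters, whereas IL4 acts on Iγ1 and Iε. Along IgH, Sγ2b lies downstream of Sγ3 and Sγ1 and upstream of Sγ2a, Sε and Sα. The locus is read on the minus strand, so upstream means a higher coordinate, and a prey on the same strand as the bait is a deletion whereas the opposite strand is an inversion.

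The matched bases of the 624 prey alignments were laid onto their coordinates to show what the joined DNA looks like. They gave 70255 bases over 6917 positions. A matched base equals the reference, so the stretches below show reference sequence and matched bases could not clash. Mismatched bases, 865 in all (1.22% of aligned bases), were left out, and 384 preys (61.5%) had none. Junctions were concentrated in 4 bins of 1 kb, chr12:114545000-114548999, called the core here, of which 3890 positions (97.2%) were rebuilt. The 250 bases with the most deletions are shown first, at chr12:114546935-114547184, and the 250 bases with the most junctions in the bin next upstream, where inversions were more frequent, are shown second, at chr12:114548130-114548379. Both are on the minus strand, 5′ to 3′, with AGCT in capitals.
Most deletions: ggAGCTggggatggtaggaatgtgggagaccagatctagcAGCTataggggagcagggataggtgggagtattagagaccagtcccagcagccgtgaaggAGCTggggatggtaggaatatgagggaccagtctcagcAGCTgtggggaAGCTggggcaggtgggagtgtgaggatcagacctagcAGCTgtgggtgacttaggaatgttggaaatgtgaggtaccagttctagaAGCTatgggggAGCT
Bin upstream: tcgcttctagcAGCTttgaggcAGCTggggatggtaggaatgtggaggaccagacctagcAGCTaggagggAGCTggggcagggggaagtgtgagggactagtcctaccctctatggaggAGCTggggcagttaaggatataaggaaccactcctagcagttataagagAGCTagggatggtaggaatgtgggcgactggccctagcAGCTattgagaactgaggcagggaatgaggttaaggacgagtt

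The first stretch holds 8 AGCT motifs and took 110 deletions and 22 inversions, 21.2% of all Sγ2b junctions. The second holds 7 AGCT motifs and took 39 deletions and 19 inversions. AGCT reads the same on both strands. Stretches of 250 bases could be rebuilt from 3304 starts in the interval, and each of the 3304 held at least 1 AGCT, with a median of 7. The core repeats itself: a base was the same as the base 49 bp away in 50.4% of pairs and as the base 98 bp away in 49.0%, against a median of 27.3% over distances from 20 to 120 bp. AGCT was counted 93 times in the core, with a median spacing of 38 bp. Its density was 3.20, 3.10 and 2.50 per 100 rebuilt bases in the 3 bins with the most junctions, against 0.562 in the most downstream bin of the core.

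Junctions as sequenced are shown next, 1 for each A150 bait and each class of join. Within a class the deletion found in the most libraries is given, with ties going to the higher count and then to the lower coordinate. Each line gives up to 30 bases of the bait, then the bases that fit both bait and prey in capitals, then 30 bases of the prey. A direct join has no capitals, and its break lies after base 30. The shared bases are called microhomology (MH), counted as the overlap of the aligned bait and prey. Of the 328 overlaps, 15 hold a base that mismatches the bait or the prey, and only junctions without such a base are shown. Read bases are printed, and mismatches to the reference occur outside the capitals.
Sµ bait, direct: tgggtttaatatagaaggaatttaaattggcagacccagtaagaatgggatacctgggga
Sµ bait, MH of 3 bp: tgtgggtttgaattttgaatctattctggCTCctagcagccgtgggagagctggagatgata
Sµ bait, MH of 5 bp: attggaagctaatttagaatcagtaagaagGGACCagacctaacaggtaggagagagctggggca
Sγ3 bait, direct: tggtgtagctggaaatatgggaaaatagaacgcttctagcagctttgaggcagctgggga
Sγ3 bait, MH of 1 bp: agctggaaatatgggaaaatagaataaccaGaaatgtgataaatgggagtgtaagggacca
Sγ3 bait, MH of 4 bp: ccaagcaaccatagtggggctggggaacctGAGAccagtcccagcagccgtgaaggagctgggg
Longest MH, 10 bp: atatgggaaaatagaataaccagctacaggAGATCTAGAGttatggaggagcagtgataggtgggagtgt
Inversion, MH of 4 bp: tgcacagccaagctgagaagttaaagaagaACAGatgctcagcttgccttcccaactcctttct

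The prey of these junctions began at 114545760, 114546908 and 114546522 for the Sµ bait and at 114548378, 114545868 and 114547110 for the Sγ3 bait. The junction with the longest MH free of mismatches (Sγ3 bait, prey at 114547643) and the Sγ3-bait inversion with the longest such MH (prey at 114548536) were chosen after their values were seen.

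Sγ2b was a minor acceptor in every group. The groups that gave Sγ2b junctions were WT with the Sµ bait and A150 with either bait. Their libraries held 4621 to 96481 IgH junctions each, and Sγ1 took most of these, from 63.9% on average in A150 with the Sγ3 bait and anti-CD40+TGF-β to 85.9% in WT with the Sµ bait and anti-CD40+IL4. WT libraries with the Sγ3 bait held 31 to 102 IgH junctions each. Read names placed all anti-CD40+IL4 libraries in 1 sequencing run and all anti-CD40+TGF-β libraries in another, so stimulation and run cannot be told apart. Comparisons of bait and of genotype lie within a run. The mark for low mapping quality was on 51.6% to 81.1% of the IgH junctions of the libraries that gave Sγ2b values, and on 0 of the 624 Sγ2b junctions.

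Sγ2b junctions were more frequent with anti-CD40+TGF-β than with anti-CD40+IL4, where they were nearly missing. Of the 624 junctions, 586 came from anti-CD40+TGF-β libraries, although these held 211473 IgH junctions against 404868 for anti-CD40+IL4. With anti-CD40+IL4, the 3 WT libraries with the Sµ bait gave 0, 2 and 4 Sγ2b junctions, which is 0%, 0.00943% and 0.0166% of IgH junctions. The 4 A150 libraries with the Sµ bait gave 0, 4, 4 and 3 junctions, or 0%, 0.0111%, 0.0209% and 0.0146%. The 3 A150 libraries with the Sγ3 bait gave 3, 12 and 6 junctions, or 0.00433%, 0.0124% and 0.00710%. The 3 groups overlapped, and a count of 0 allows up to 0.0346% in the WT library and 0.0121% in the A150 library (3 junctions of the total, counting error only).

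With anti-CD40+TGF-β, the WT libraries with the Sµ bait gave 5, 10 and 8 Sγ2b junctions, a share of 0.108%, 0.187% and 0.112%. The A150 libraries with the Sµ bait gave 40, 47 and 35 junctions, or 0.386%, 0.440% and 0.424%. The A150 libraries with the Sγ3 bait gave 92, 120, 105 and 124 junctions, or 0.241%, 0.259%, 0.299% and 0.274%. These 3 groups did not overlap with one another. Each of their libraries lay above every anti-CD40+IL4 library.

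The mean share rose from 0.00869% ± 0.00834 (SD, n = 3) to 0.136% ± 0.0447 (n = 3) in WT with the Sµ bait, 15.6-fold. In A150 it rose from 0.0117% ± 0.00877 (n = 4) to 0.417% ± 0.0276 (n = 3) with the Sµ bait, 35.8-fold, and from 0.00796% ± 0.00412 (n = 3) to 0.268% ± 0.0245 (n = 4) with the Sγ3 bait, 33.7-fold. Over the 20 libraries the mean within-group rise was 0.264 percentage points (exact 2-sided permutation of stimulation within genotype and bait, p = 4.08e-05, the smallest that its 24500 arrangements can give, 0.000429 after Benjamini-Hochberg adjustment over 21 tests). The folds rest on 6, 11 and 21 Sγ2b junctions in the anti-CD40+IL4 groups and are imprecise. Leaving out single libraries moved them from 10.4 (without library 1 of WT and anti-CD40+IL4) to 28.8 (without library 3) in WT, from 26.8 to 48.7 in A150 with the Sµ bait and from 27.4 to 46.9 with the Sγ3 bait.

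**Figure D1:**
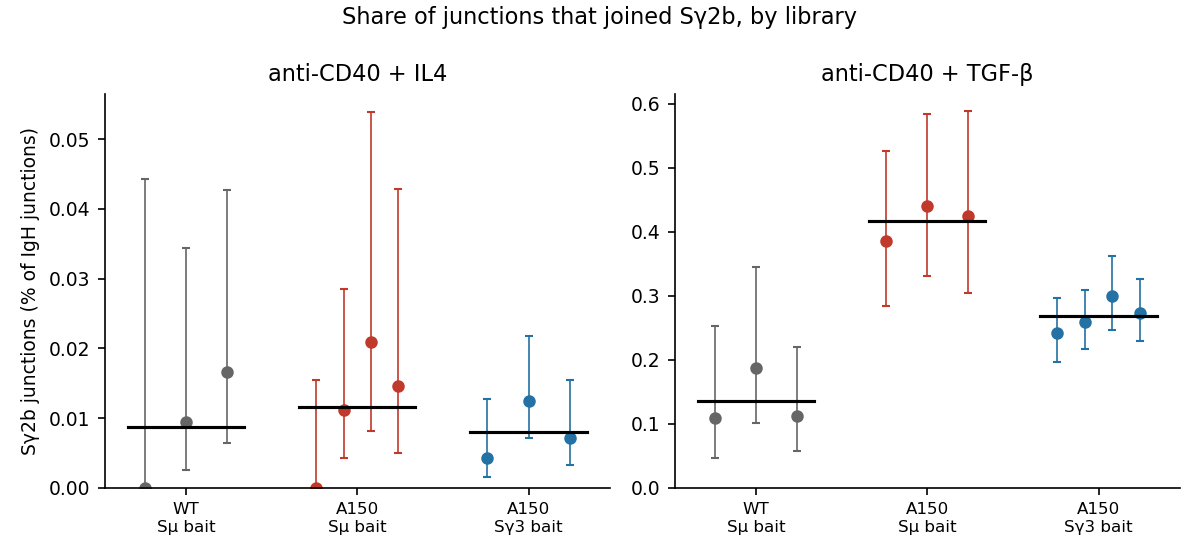
Share of Sγ2b junctions (% of IgH junctions, y axis) in each library (points, with 95% Wilson intervals for counting error), by genotype and bait, with the group mean as a black line. The y axes of the 2 panels differ: anti-CD40+IL4 libraries reach 0.0209%, and anti-CD40+TGF-β libraries run from 0.108% to 0.440%.

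Some Sγ2b junctions of the anti-CD40+IL4 libraries were found again in an anti-CD40+TGF-β library. There were 6 junctions with the same bait end, prey position, orientation and MH in 2 libraries, and all 6 paired an A150 library of each stimulation made with the same bait. Of these, 5 were among the 21 junctions of A150 with the Sγ3 bait and anti-CD40+IL4, each shared with the library of the same number, and 1 was among the 11 junctions with the Sµ bait, shared with a library of another number. The Sγ3-bait junctions with 1 bp and 4 bp of MH and the Sµ-bait junction with 3 bp of MH printed above are 3 of them. Identical IgH junctions of the 2 stimulations were therefore counted too, per 1000000 possible pairs of distinct junctions, a check chosen after seeing the data. With the Sγ3 bait, A150 libraries of the same number shared 1.38, 1.39 and 1.33, above the 1.17 to 1.31 shared by libraries of unlike number, and with the Sµ bait the same number was highest for 1 of 3 libraries. The lengths of the prey alignments differed within all 6 pairs of Sγ2b junctions, and how these junctions came to be in both runs was not tested. Without them the rise with anti-CD40+TGF-β was 0.263 points (exact permutation p = 4.08e-05, an alternative chosen after seeing the data).

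The change at Sγ2b was set beside Sε, the S region of IgE. With anti-CD40+IL4 there were 0 to 0.235 Sγ2b junctions per 100 Sε junctions in the libraries of these 3 groups. With anti-CD40+TGF-β there were 6.94, 9.35 and 6.72 in WT with the Sµ bait, 7.59, 7.11 and 6.04 in A150 with the Sµ bait and 12.7, 12.5, 11.2 and 11.9 in A150 with the Sγ3 bait. The log2 ratio of Sγ2b to Sε (0.5 junctions added to each) was 6.31 higher with anti-CD40+TGF-β (exact permutation p = 4.08e-05, 0.000429 adjusted). Both terms moved, since Sε fell from 6.83% to 1.74% of IgH junctions in WT with the Sµ bait. Sα rose as Sγ2b did, in pooled counts from 12 of 53933 to 175 of 17106 IgH junctions in WT with the Sµ bait. In A150 it rose from 45 of 100525 to 541 of 29302 with the Sµ bait and from 93 of 250154 to 1700 of 164959 with the Sγ3 bait. Sγ2a, the next S region downstream, took 0 to 4 junctions in each of the libraries of these groups. The log2 ratio of Sγ2b to Sγ2a rose by 3.60 (exact permutation p = 0.000286, 0.002 adjusted), from 38 Sγ2b and 18 Sγ2a junctions in all anti-CD40+IL4 libraries to 586 and 14 in all anti-CD40+TGF-β libraries.

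The Sµ and Sγ3 baits were compared in A150, where both regions lie behind an Eµ enhancer. With anti-CD40+TGF-β the Sγ2b share was 1.55-fold higher with the Sµ bait than with the Sγ3 bait, 0.417% against 0.268%, without overlap. Over both stimulations the difference, Sγ3 minus Sµ bait, was -0.0761 points (exact permutation of bait within stimulation, 1225 arrangements, p = 0.00816, 0.0343 adjusted). With libraries of the same number paired as a block it was -0.0765 points and lost its call (exact sign-flip test over 6 pairs, p = 0.125, where the smallest possible is 0.0312). It was -0.148 points with anti-CD40+TGF-β (exact p = 0.0286, the smallest that 35 splits can give), whereas with anti-CD40+IL4 the groups overlapped (0.0117% against 0.00796%, exact p = 0.543). It depended on the scale: on the log2 scale the Sγ3 bait was lower by 0.49 (exact p = 0.351), and as a share of all junctions of the genome it was lower by 0.0166 points (exact p = 0.155). IgH junctions made up 57.5% of all junctions from the Sµ bait and 78.2% from Sγ3 after anti-CD40+TGF-β, and their part in the result was not tested.

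Against Sε, the order of the baits turned. Sε took 6.09% of IgH junctions from the Sµ bait and 2.24% from Sγ3 after anti-CD40+TGF-β. Sγ2b junctions per 100 Sε junctions were 6.92 ± 0.791 (SD, n = 3) from the Sµ bait and 12.1 ± 0.687 (n = 4) from Sγ3, without overlap (log2 ratio higher by 0.80, exact p = 0.0286). Over both stimulations the log2 ratio was 0.80 higher with the Sγ3 bait (exact permutation p = 0.0531, 0.124 adjusted), and 1.01 higher when both stimulations were counted in the core alone (exact p = 0.00327). With Sγ2b as a share of Sγ2b, Sγ2a, Sε and Sα junctions together, the Sγ3 bait gave a value 1.31 points higher (exact p = 0.00571). Sε was the largest of these regions. Against Sα the baits were not tested: after anti-CD40+TGF-β there were 122 Sγ2b and 541 Sα junctions from Sµ, and 441 and 1700 from Sγ3. The log2 ratio to Sγ2a was 1.21 higher with the Sγ3 bait over both stimulations (exact permutation p = 0.189) and 1.89 higher after anti-CD40+TGF-β (exact p = 0.0286). After anti-CD40+TGF-β, Sγ2b junctions thus made up less of all IgH junctions but were more frequent relative to Sε when the bait was Sγ3. With anti-CD40+IL4 the baits overlapped in both.

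**Figure D2:**
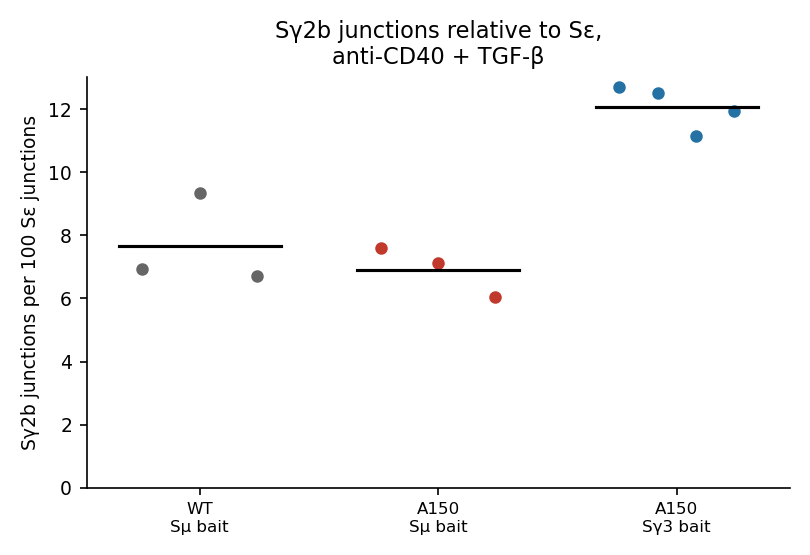
Sγ2b junctions per 100 Sε junctions (y axis) in each anti-CD40+TGF-β library (points), with the group mean as a black line. The 4 A150 libraries with the Sγ3 bait lie between 11.2 and 12.7, above the 6 libraries with the Sµ bait, which lie between 6.04 and 9.35.

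The genotypes were compared with the Sµ bait, which is the endogenous donor in both. With anti-CD40+TGF-β the Sγ2b share was 3.07-fold higher in A150 than in WT, 0.417% against 0.136%, and the 3 A150 libraries lay above the 3 WT libraries (exact p = 0.1, the smallest that 20 splits allow). With anti-CD40+IL4 it was 0.0117% against 0.00869%, with overlap (exact p = 0.686). Over both stimulations A150 was 0.142 points higher (exact permutation, 700 arrangements, p = 0.0343), which did not pass after adjustment (0.09). Sε was also higher in A150, 6.09% against 1.74% of IgH junctions (3.50-fold, exact p = 0.1), and Sγ2b junctions per 100 Sε junctions overlapped between the genotypes, at 6.92 ± 0.791 in A150 and 7.67 ± 1.45 in WT (SD, n = 3 each). The log2 ratio of Sγ2b to Sε in A150 lay 0.21 below that in WT with anti-CD40+TGF-β (exact p = 0.5). IgH junctions made up 43.4% of all junctions in these WT libraries and 57.5% in these A150 libraries, and their part in the result was not tested.

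WT libraries with the Sγ3 bait gave no Sγ2b junction. There were 0 of 256 IgH junctions with anti-CD40+IL4, which allows a share of up to 1.17%, and 0 of 106 with anti-CD40+TGF-β, which allows up to 2.83%. Both limits are above every share measured in A150, so a difference at Sγ2b was not detectable at this depth.

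Most joins to Sγ2b were deletions, with 493 deletions and 131 inversions. With anti-CD40+TGF-β, inversions made up 0%, 0% and 12.5% of the Sγ2b junctions of the WT libraries with the Sµ bait, which rests on 1 inversion in 23 junctions. They made up 12.5%, 19.1% and 17.1% in A150 with the Sµ bait and 25.0%, 21.7%, 16.2% and 29.8% in A150 with the Sγ3 bait. The 2 A150 groups overlapped, with means of 16.3% ± 3.41 (SD, n = 3) and 23.2% ± 5.74 (n = 4). The difference of 6.91 points had an exact p of 0.143. Over both stimulations A150 had 13.7 points more inversions than WT with the Sµ bait (exact permutation, 200 arrangements, p = 0.03, 0.09 adjusted). This difference ran from 7.44 to 19.9 points when single libraries were left out and had an exact p of at least 0.05 in 8 of these 11 fits, and in the core alone its exact p was 0.14. With anti-CD40+IL4 there were 7 inversions among 38 junctions.

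The baits were also compared for deletions and inversions apart. After anti-CD40+TGF-β, Sγ2b deletions were 0.348% ± 0.00929 (SD, n = 3) of IgH junctions from the Sµ bait and 0.207% ± 0.0307 (n = 4) from Sγ3 in A150, 1.69-fold apart and without overlap (exact p = 0.0286, the smallest of 35 splits). Sγ2b inversions were 0.0684% ± 0.0184 and 0.0616% ± 0.0142, with overlap (exact p = 0.629). Between the genotypes, both were higher in A150 with the Sµ bait, deletions 2.65-fold and inversions 0.0684% against 0.00466%, without overlap (exact p = 0.1 for each, the smallest of 20 splits). Whether the bait acted unequally on deletions and inversions was tested only as the share of inversions above, whose groups overlapped.

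Junctions filled a narrow part of the 19 kb interval. The core of 4 kb held 589 of 624 junctions, and the bins that start at 114546000, 114547000 and 114548000 held 209, 217 and 130. Breaks were spread: over the whole interval, the 619 junctions left when identical ones in a library were counted once lay at 534 combinations of position and strand, of which 459 were used once, 65 by 2 junctions and 10 by 3, the highest number. By the lowest coordinate, 5 of these 10 are 114546793, 114546820, 114546831, 114546995 and 114547134, all deletions. Each was found in 2 or 3 libraries, and 4 of the 5 were reached from more than 1 group.

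**Figure D3:**
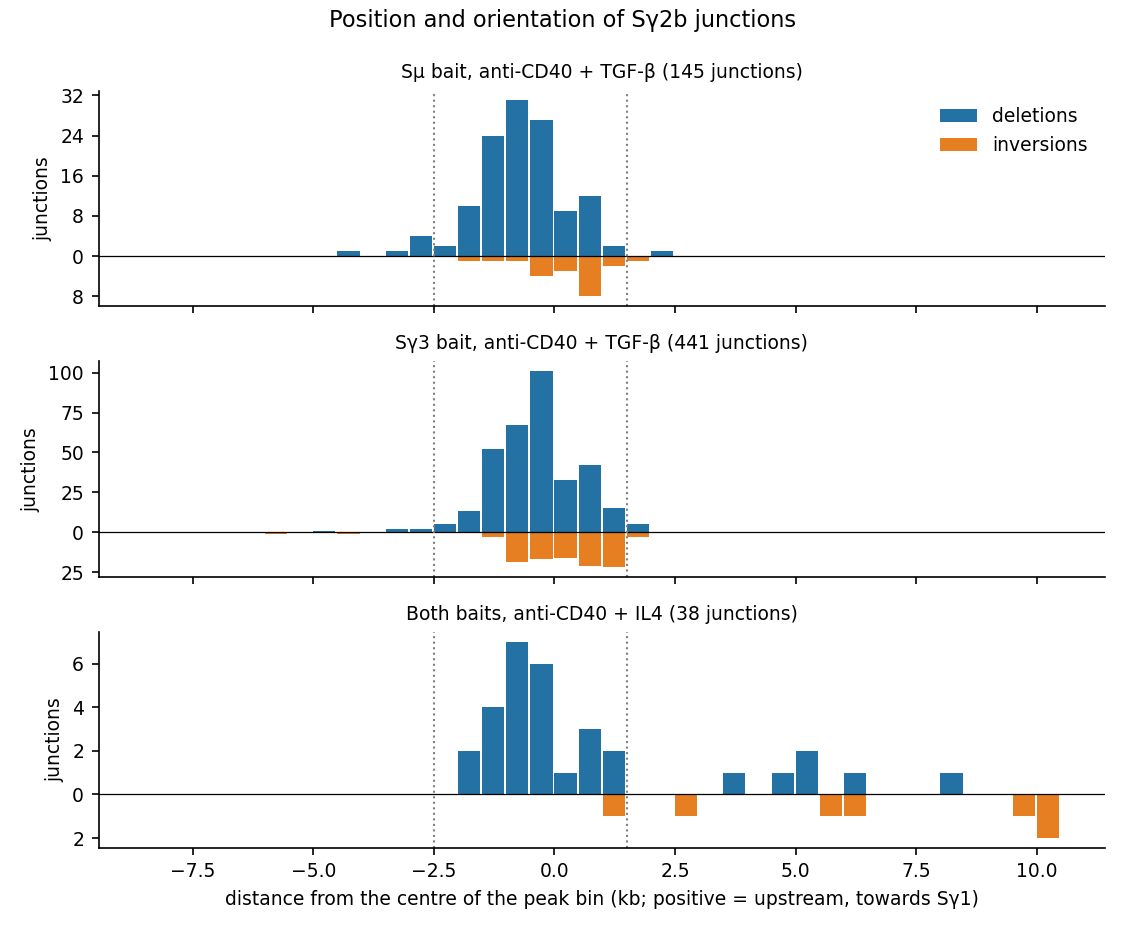
Number of Sγ2b junctions (y axis, bins of 0.5 kb, deletions upward and inversions downward) by distance from the centre of the peak bin (kb, x axis), pooled over libraries. Dotted lines mark the core. Deletions peak just downstream of the centre, inversions extend to the upstream side, and 12 of the 38 anti-CD40+IL4 junctions lie upstream of the core.

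Inversions lay upstream of deletions. With anti-CD40+TGF-β the share of inversions rose along the 3 main bins from downstream to upstream, with 24 inversions among 198 junctions (12.1%), 40 among 210 (19.0%) and 53 among 124 (42.7%). This was so in single libraries as well. In A150 with the Sγ3 bait, the median inversion lay 977, 146, 1144 and 438 bp upstream of the median deletion. In A150 with the Sµ bait the distances were 1303, 1267 and 434 bp, and in the WT library with an inversion, a single one, 1363 bp. Over these 8 libraries the mean was 884 bp ± 474 (SD), upstream in 8 of 8 (exact sign-flip test, 2-sided p = 0.00781, the smallest possible, a test chosen after the pooled profile was seen). Without the WT library it was 816 bp ± 468 (SD, 7 of 7, exact p = 0.0156). A deletional prey is read toward lower and an inversional prey toward higher coordinates, and the part of that in the offset was not tested.

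**Figure D4:**
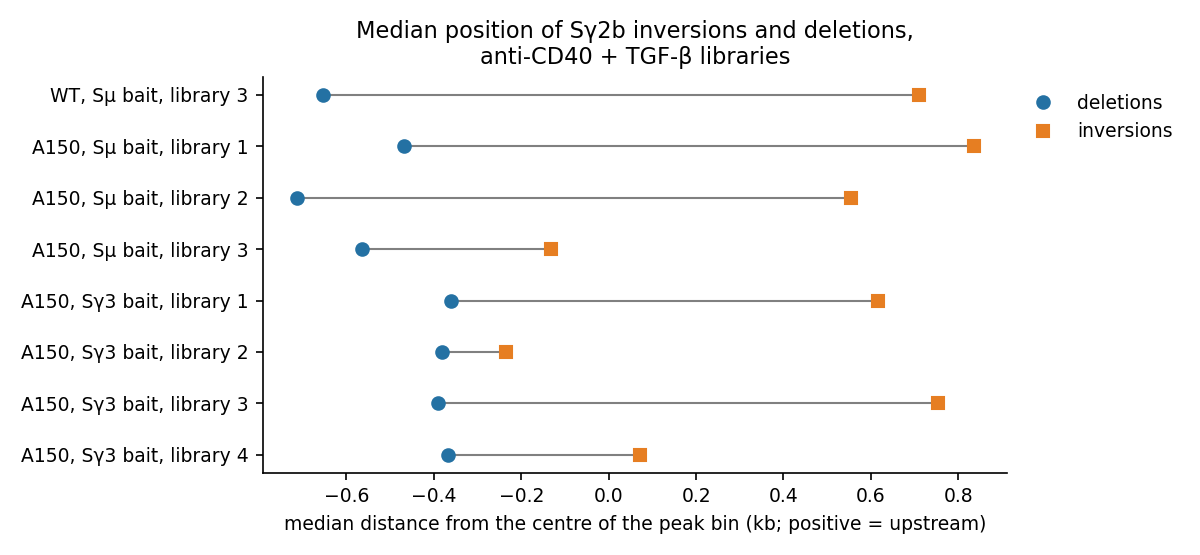
Median position of Sγ2b deletions (circles) and inversions (squares) in each anti-CD40+TGF-β library that held both, as the distance from the centre of the peak bin (kb, x axis, positive is upstream). The inversion lies upstream of the deletion in 8 of 8 libraries, by 146 to 1363 bp.

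As a share of Sγ2b junctions, the position differed between the stimulations outside the core. Of the anti-CD40+IL4 junctions, 12 of 38 (31.6%, exact 95% interval 17.5% to 48.7%) lay upstream of the core, against 10 of 586 (1.71%, 0.821% to 3.12%) of the anti-CD40+TGF-β junctions. Those 12 came from 404868 IgH junctions and the 10 from 211473, so upstream joins were not more frequent with anti-CD40+IL4 among IgH junctions. All 10 lay in the bin that starts at 114549000, next to the core, which held 0 with anti-CD40+IL4. The 12 were 3 of 6 in WT with the Sµ bait, 5 of 11 in A150 with the Sµ bait and 4 of 21 in A150 with the Sγ3 bait. Of the last 4, 3 are inversions of 1 library, at 114557154 and, for 2 of them, at 114557526, next to the start of the Sγ1 interval at 114558000, and the other libraries of that group gave 1 of 9. Intervals are of pooled junctions and cover counting error only. Library medians, counted from the downstream end of the interval, differed by -2.19 kb with anti-CD40+TGF-β, that is farther downstream (exact permutation over 18 libraries, p = 0.00214, 0.0112 adjusted). In deletions alone the difference was -1.29 kb (exact p = 0.0456), and with the library number as a block it was -1.82 kb and lost its call (exact sign-flip test over 7 pairs, p = 0.0625, where the smallest possible is 0.0156). With the Sµ bait the means were 11.8 kb with anti-CD40+IL4 and 7.81 kb with anti-CD40+TGF-β in WT, and 10.6 and 7.99 kb in A150, whereas with the Sγ3 bait they were 8.17 and 8.15 kb. Within the core the difference between stimulations was -0.16 kb (exact p = 0.637), and the anti-CD40+IL4 medians rest on 2 to 12 junctions each. With anti-CD40+TGF-β the A150 medians lay at 8.14, 7.83 and 7.995 kb with the Sµ bait and at 8.18, 8.14, 8.14 and 8.17 kb with the Sγ3 bait, a difference of 0.17 kb (exact p = 0.0571).

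AGCT motifs were found within 5 bp of a larger share of Sγ2b junctions than of possible breaks. For 586 of the 589 core junctions the bases within 10 bp of the break were rebuilt. The break lay within 5 bp of the centre of an AGCT in 219 of these (37.4%), against 26.8% of all possible breaks in the rebuilt core, and 31.4% when possible breaks were weighted to the bins where the junctions lay. Within 2 bp it was 17.7% of junctions, against 12.2% and 14.4%, and at the centre itself 2.73%, against 2.45% and 2.87%. Within 2 bp it was 18.6% for deletions and 14.3% for inversions, whereas within 5 bp the order was the other way, at 36.8% and 39.5%. In the 7 A150 anti-CD40+TGF-β libraries the share within 2 bp ran from 13.3% to 22.5%, and in 6 of 7 it was above 14.4%. These are descriptions with no test, and MH leaves the exact break uncertain by its own length.

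The structure of Sγ2b joins was dominated by direct joins and short MH. Of the 624 junctions, 180 (28.8%) were direct, 279 (44.7%) had MH of 1 to 3 bp, 49 (7.85%) had MH of more than 3 bp and 116 (18.6%) carried an insertion. These pooled values mostly describe A150 with the Sγ3 bait and anti-CD40+TGF-β, which gave 441 of the 624. MH of 1 bp was the most frequent length, with 153 junctions, followed by 73 with 2 bp and 53 with 3 bp. Insertions reached 29 bp and 51 of 116 were 1 bp long. Among the 49 overlaps of more than 3 bp, 14 hold a mismatch. The longest overlap was 13 bp, with the Sγ3 bait, of which 7 bp match without a break. Without a mismatch in the overlap the longest MH was 10 bp with the Sγ3 bait, shown above, and 6 bp with the Sµ bait. The prey of that 10 bp junction held 19 mismatches outside the overlap, where the most in any prey was 21.

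The study compared MH between the donors, since longer MH is usually linked to alternative end-joining. It reports MH of more than 3 bp as more frequent with Sγ3 than with Sµ as the donor, for the acceptors Sγ1, Sε and Sα. With anti-CD40+TGF-β, Sγ2b junctions with MH of more than 3 bp made up 12.5%, 4.26% and 2.86% in A150 with the Sµ bait. For the Sγ3 bait these were 4.35%, 9.17%, 10.5% and 8.87%. The groups overlapped, with means of 6.54% ± 5.21 (SD, n = 3) and 8.22% ± 2.67 (n = 4), and a difference of 1.68 points (exact p = 0.629). Pooled, these were 8 of 122 junctions (Wilson 95% interval 3.36% to 12.4%) and 37 of 441 (6.15% to 11.4%), intervals that leave room for a difference in either direction. In WT with the Sµ bait 1 of 23 junctions had such MH. Over both stimulations the difference between the baits was 0.839 points (exact permutation, 700 arrangements, p = 0.871), and leaving out single libraries moved it from -1.24 to 5.01 points. It was larger in deletions alone, 6.33 points higher with the Sγ3 bait (exact p = 0.0514), and in junctions with at least 30 aligned prey and 50 aligned bait bases, 5.63 points (exact p = 0.334), whereas MH of more than 4 bp differed by -1.61 points (exact p = 0.974). Counted as the longest stretch that matches both sides, an alternative chosen after seeing the data, 43 junctions had MH of more than 3 bp, and the difference was 1.26 points (exact p = 0.751). No MH comparison passed.

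Direct joins did not pass a test between the baits after anti-CD40+TGF-β. They made up 35.2% ± 0.951 (SD, n = 3) from the Sµ bait and 28.1% ± 3.92 (n = 4) from Sγ3 in A150, without overlap, since the Sµ libraries lay between 34.3% and 36.2% and the Sγ3 libraries between 22.9% and 31.5% (exact p = 0.0571 over 35 splits, a test chosen after the values were seen). Insertions made up 16.2% ± 8.39 and 18.9% ± 2.07, with overlap (difference 2.70 points, exact p = 0.543). Over both stimulations insertions were 16.6 points more frequent with the Sγ3 bait (exact permutation p = 0.0271, 0.09 adjusted), which rests on 0 insertions among 11 anti-CD40+IL4 junctions with the Sµ bait against 7 among 21 with the Sγ3 bait.

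**Figure D5:**
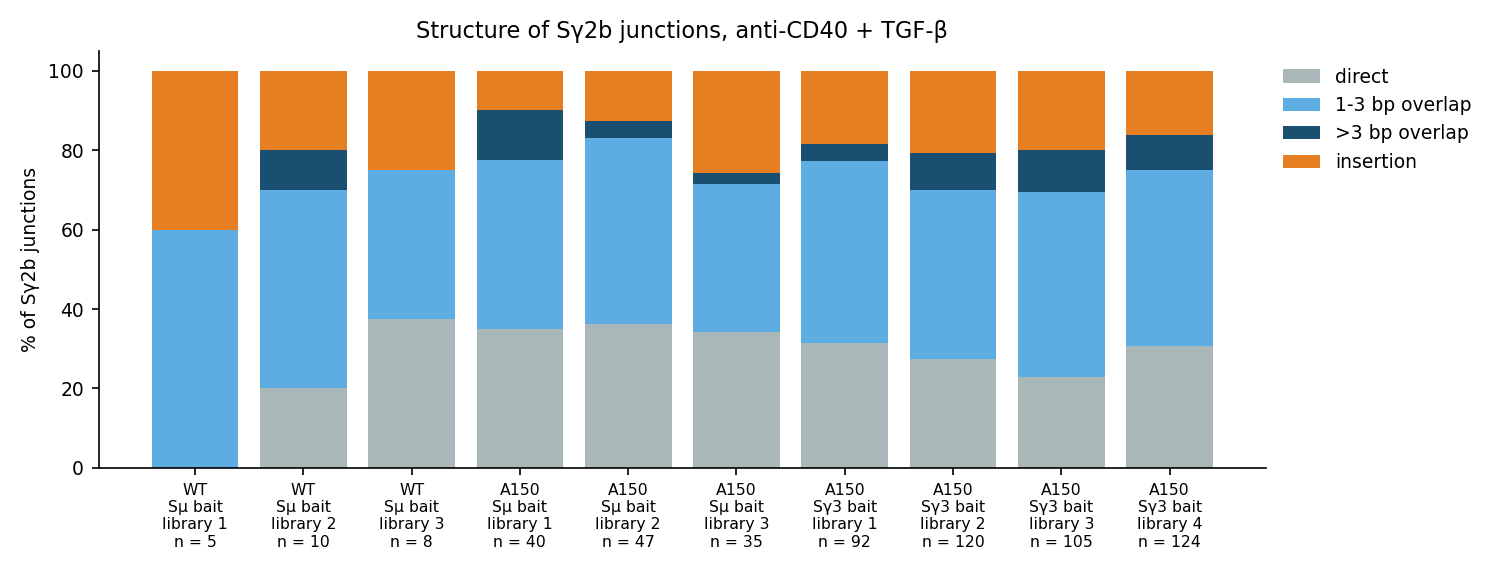
Structure of Sγ2b junctions in each anti-CD40+TGF-β library, as the percentage (y axis) that were direct, had 1-3 bp or >3 bp of overlap (MH) or carried an insertion. n is the number of Sγ2b junctions. The dark segments (>3 bp) run from 0% to 12.5% and overlap between the A150 baits.

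Sγ2b joins were compared in structure with Sε joins of the same 10 anti-CD40+TGF-β libraries, by group, a comparison chosen after seeing the data. The share of inversions differed in opposite directions for the A150 baits. With the Sµ bait, 16.3% of Sγ2b and 7.20% of Sε junctions were inversions on average, and Sγ2b was higher in 3 of 3 libraries, by 5.67, 11.3 and 10.2 points. With the Sγ3 bait these means were 23.2% and 29.6%, and Sγ2b was lower in 3 of 4 libraries (differences of -5.48, -8.75, -11.9 and 0.455 points). The Sε inversions thus lay between 6.83% and 7.87% from Sµ and between 28.1% and 30.5% from Sγ3, whereas the Sγ2b inversions overlapped. The Sγ2b minus Sε difference did not overlap between the baits, at 9.06 ± 2.98 points (SD, n = 3) against -6.41 ± 5.27 (n = 4), but did not pass (exact permutation over 35 splits, p = 0.0571, 0.143 after adjustment over 5 measures).

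Direct joins gave a similar picture. They were more frequent at Sγ2b than at Sε in 3 of 3 A150 libraries with the Sµ bait, by 7.39 ± 1.84 points (SD), and the difference was -1.36 ± 3.50 points with the Sγ3 bait (n = 4), again without overlap and without passing (exact p = 0.0571, 0.143 adjusted). MH of more than 3 bp differed by -0.0581 ± 4.88 points with the Sµ bait and -0.293 ± 2.58 points with the Sγ3 bait, with overlap (exact p = 0.971). Insertions differed by -7.86 ± 8.74 and -3.14 ± 3.10 points, with overlap (exact p = 0.314). The length of the aligned bait shows how far from the primer the donor broke. Its median was 2.33 ± 8.08 bases longer for Sγ2b than for Sε with the Sµ bait. The difference was -10.9 ± 7.05 bases for Sγ3, with overlap (exact p = 0.0857). The 3 WT libraries held 5 to 10 Sγ2b junctions each, and their inversions differed by -10.3 to 6.62 points.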

How the data were processed

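For each CSR-HTGTS library the authors deposited a table with a row per junction, which gives where bait and prey align in mm9 and along the read, their strands, the read itself and marks from filtering. Values are coordinates and marks, and rows were counted here. No normalization was applied by the authors. The submitters' processing notes name Bowtie2 and mm9, with no version. Junctions with marks for low mapping quality or duplicates were kept, and IgH was chromosome 12 from 114450000 to 114700000. The members, regions and tests were chosen with earlier results of these data known.

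The share of Sγ2b is the percentage of IgH junctions in a library. MH is the number of read bases in both alignments, mismatches included, negative for an insertion. The core comprises the bins with at least 5% of the junctions of the peak bin. Sγ2a, Sε and Sα were delimited at the lowest bin of 1 kb between peaks of the pooled density. A single value per library entered 2-sided exact permutation tests within strata, with Benjamini-Hochberg adjustment over 21 tests and over 14 tests of a change between stimulations, at a threshold of 0.05. Tests within 1 stimulation are unadjusted. Libraries without Sγ2b junctions gave no composition or position. Wilson intervals at 95% and limits of 3 junctions cover counting error only, since reads carried no molecular identifiers in the tables. Named positions were to be the 5 with the most junctions, and the lowest coordinates were taken because 10 positions tied. The stratified permutation tests were checked on simulated data for the share only, starting from the pooled rate of all libraries. This did not cover the low counts with anti-CD40+IL4, the other measures or the sign-flip tests. Python 3.11.15, numpy 2.4.6, pandas 2.3.3, scipy 1.17.1 and matplotlib 3.10.9 were used. Sequences came from matched bases of the deposited alignments, because no mm9 genome was used here.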

Additional observations from a re-analysis of the deposited data

Results flagged for a closer look

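The difference between the A150 baits changed between the stimulations for 3 measures of Sγ2b. For the Sγ2b share, the difference (Sγ3 minus Sµ bait) was 0.145 points lower with anti-CD40+TGF-β than with anti-CD40+IL4 (change of -0.145, exact permutation over 1225 arrangements, p = 0.0212, 0.1 after Benjamini-Hochberg adjustment over 14 tests). On the log2 scale that change was -0.32 (exact p = 0.779), so as a fold it was not seen. For the share of inversions the change was 26.4 points (exact permutation over 700 arrangements, p = 0.0214, 0.1 adjusted), from 8.33% with the Sγ3 bait and 27.8% with the Sµ bait after anti-CD40+IL4 to 23.2% and 16.3% after anti-CD40+TGF-β. The anti-CD40+IL4 values rest on 3 inversions for each bait, and the 3 of the Sγ3 bait are all in library 2, so that without it this bait has 0 inversions. For the median position it was 2.58 kb (exact permutation over 700 arrangements, p = 0.00286, 0.04 adjusted), from 8.17 kb with the Sγ3 bait and 10.6 kb with the Sµ bait after anti-CD40+IL4 to 8.15 and 7.99 kb after anti-CD40+TGF-β. Single libraries were examined in the groups of 4 by the gap to the nearest library over the range of the group, against Dixon's critical value at 95%. None of the 10 groups of values passed, and the largest ratio was 0.781, for the log2 ratio of Sγ2b to Sγ2a in library 2 of A150 with the Sγ3 bait and anti-CD40+TGF-β (7.91).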

How the results depend on the processing

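The rise of the Sγ2b share with anti-CD40+TGF-β and of its log2 ratios to Sε and Sγ2a kept direction and threshold under every alternative run, but the size of the rise depended on the denominator. It was 0.264 points of IgH junctions, 0.255 to 0.269 when single libraries were left out, 0.760 without low mapping quality, 0.161 with the genome and 5.62 with Sγ2b, Sγ2a, Sε and Sα as the denominator. The bait difference in the share was 1.31 points the other way with these 4 regions, -0.333 points without low mapping quality (exact p = 0.00653), -0.0166 points with the genome as the denominator and -0.49 on the log2 scale. The genotype difference was 0.168 points with the 4 regions as the denominator (exact p = 0.726), 0.333 without low mapping quality (exact p = 0.0671), 0.73 on the log2 scale (exact p = 0.239) and 0.135 to 0.155 when single libraries were left out, with an unadjusted p no longer under 0.05 without library 1 of WT or library 3 of A150 with the Sµ bait and anti-CD40+IL4. In the core alone, the log2 ratio of Sγ2b to Sε between baits was 1.01 and passed, inversions differed by 10.96 points between genotypes (exact p = 0.140) and by 11.2 points between stimulations (exact p = 0.0311), against -1.67 points in the whole interval (exact p = 0.753). The median position differed there by 0.00142 kb between baits, against -1.12 kb in the whole interval, by 0.00246 kb between genotypes, against -0.51 kb, and by -0.16 kb between stimulations. In anti-CD40+TGF-β libraries alone, insertions differed between baits by 2.70 points, inversions by 6.91 points between baits (-6.27 over both stimulations) and 12.1 points between genotypes, and the median position by 0.17 kb between baits and 0.17 kb between genotypes. When preys under 30 and baits under 50 aligned bases were left out, insertions differed between baits by 11.9 points (exact p = 0.309) and MH of more than 3 bp by -2.19 points between stimulations (0.473 with all). For MH of more than 3 bp the difference between baits was 0.839 points, against 6.33 in deletions alone (exact p = 0.0514), 5.63 with these longer alignments (exact p = 0.334) and 2.85 without insertions (exact p = 0.614). With MH of more than 4 bp it was -1.61 points, and -0.87 points between stimulations, where the longest matching stretch gave -0.36 points. For the changes above the cause was not tested.

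Leaving out single libraries also changed results with few junctions. The ranges were 7.44 to 19.9 points for inversions between genotypes, -5.84 to 2.50 for inversions between stimulations, -1.24 to 5.01 for MH of more than 3 bp between baits and -0.916 to 3.25 between stimulations. They were 13.9 to 20.1 points for insertions between baits, -31.1 to -6.09 between genotypes and -5.73 to 10.9 between stimulations. For the median position between genotypes it was -1.14 to 0.12 kb, for the log2 ratio to Sγ2a between genotypes 1.08 to 2.26, and for that to Sε between baits 0.47 to 0.99.

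The labels do not say what a library number marks. Of 21 same-numbered pairs, 13 had a correlation over 0.1 (from -0.32 to 0.92, no established pairing), and 5 of the 6 shared Sγ2b junctions lay in libraries of the same number. With the number as a replicate block, the share differed by -0.0765 points between baits (exact sign-flip p = 0.125) and 0.141 between genotypes (0.0625), inversions by 12.3 points between genotypes (0.125), insertions by 16.4 points between baits (0.125), MH of more than 3 bp by -1.43 points between stimulations (0.875) and the median position by -1.82 kb between stimulations (0.0625). The smallest p is 0.0312 with the 6 pairs of the share, 0.0156 with the 7 pairs between stimulations and 0.0625 with the 5 pairs of the other measures, so an unadjusted p under 0.05 was possible for the share and the position, which lost theirs, and not for inversions and insertions, which lost theirs too. No other comparison crossed the threshold. The anti-CD40+IL4 libraries hold 0 to 12 Sγ2b junctions each although they hold more IgH junctions, and stimulation cannot be told apart from run.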
